A study of Mus musculus with 2 samples.

Results

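Polycomb and trithorax group genes encode the protein complexes that write, remove and read histone marks which keep genes silent or active through cell division. They are described here in 2 RNA libraries of mouse embryo cells that the labels call haematopoietic progenitor cells. Members were taken by symbol from a list of 51 names, of which 47 stood in the count tables and 4 were older names of genes already found (Mll1, Mll2, Mll3 and Mll5, now in the Kmt2 series). The members are therefore 47 of 24062 genes, and each had at least 20 counts over both libraries, as did 12544 genes in all.

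The cells were sorted from the aorta of C57BL6 embryos at embryonic day 11 as CD31+ KITint cells, called haematopoietic progenitor cells by the labels. They were parted by expression of the Gata2Venus transgene, which reports on the haematopoietic transcription factor gene Gata2 with a fluorescent protein. One group did not express it (Gata2Venus -, here Venus-negative) and the other did (Gata2Venus +, here Venus-positive), with 1 library each. Paired values below are given in that order. The strain, stage, tissue and surface phenotype were shared by both groups. The DNA elements that drive the reporter and the number of embryos pooled for each library were not given in the sources used here. The comparison asks which transcripts set sorted cells without the Gata2 reporter apart from those that show it. With 1 library per group there is no replicate check and no p-value, so each difference is one between these libraries, and the intervals below are exact 95% intervals that cover counting error only. The cDNA was amplified and no molecular identifiers are named, so reads are not independent molecules.

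Polycomb repressive complex 2 (PRC2) methylates histone H3 at lysine 27 through EZH2 or EZH1, with EED and SUZ12 as obligate partners. Polycomb repressive complex 1 (PRC1) ubiquitinates histone H2A through RING1 or RNF2, each paired with 1 PCGF protein. Canonical PRC1 adds CBX proteins, which read the PRC2 mark, together with PHC proteins. Variant PRC1 carries RYBP or YAF2 in their place. BAP1 with an ASXL protein removes the H2A mark. Trithorax group enzymes of the KMT2 and SET1 families methylate histone H3 at lysine 4 on a shared platform of WDR5, RBBP5, ASH2L and DPY30. In blood, members of both groups govern stem cell self-renewal and lineage choice.

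The libraries held 10135400 (negative) and 9715131 (positive) counts in genes, of which the 47 members took 0.391% and 0.363%. Gata2 itself was at 13.5 CPM (read counts relative to the library's total, after TMM scaling in edgeR) in Venus-negative and 70.2 CPM in Venus-positive cells, the direction of the sort. Of 9 haematopoietic markers, 6 were detected in Venus-negative cells and Myb, Gfi1b and Gata1 were at 0 there, whereas all 9 were detected in Venus-positive cells. Of the 9, 8 reached the level of the rule of size described below. By that rule 5 were lower in Venus-negative cells, against 14.9% of all genes at that level. Kit, whose product was part of the sort, was higher (199 and 60.7 CPM). Summed over their lists, haematopoietic markers were at 749.9 and 1145 CPM in Venus-negative and Venus-positive cells, and 7 endothelial markers at 2092 and 3712 CPM. The 8 macrophage markers summed to 185 and 824 CPM, with Timd4 at 0 in Venus-negative cells. Mesenchymal markers (9 genes, Twist1 at 0 in Venus-positive cells) summed to 6978 and 4508 CPM, with Col3a1 alone at 3249 and 1310 CPM. By the same rule 4 of the mesenchymal markers were higher in Venus-negative cells (15.2% of all genes at that level), whereas Col1a2, Dcn and Lum had lower values there. Markers of epithelial and germ cells (6 genes, none at 0) summed to 561 and 273 CPM, and 23 proliferation genes to 8235 and 7794 CPM. Erythroid markers summed to 325 and 178 CPM, nearly all from 3 globin genes. The part of these differences in the results below was not tested. In bulk RNA, fewer cells of a type and less RNA per cell cannot be told apart.

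As a set, the Polycomb and trithorax genes were at nearly the same summed level in both libraries (ratio 1.02), while individual members went both ways. The 47 genes summed to 3803 CPM in Venus-negative and 3726 CPM in Venus-positive cells. A gene was counted as past a rule of size when it had 10 CPM and 50 counts or more on its higher side and the interval of its ratio lay entirely outside 2-fold. By that rule 6 members were higher in Venus-negative cells (Phf19, Pcgf6, Ezh1, Kmt2b, Jarid2 and Rbbp5) and 5 were lower (Setd1b, Phf1, Ring1, Kmt2d and Scmh1). Among all 10381 genes that reached the level part of the rule, 15.2% were past it on the higher side and 14.9% on the lower, 30.1% together. Of the members, 43 reached that level and 11 of them (25.6%) were past the rule, so the share is near the background and is no result about the set. Negative over positive, the median log2 ratio was −0.11 over the 47 members and −0.01 over the 12544 genes. The 2 levels of a gene lay within 1.5-fold of each other for 20 members (42.6%) and for 38.5% of the 12544 genes.

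**Figure D1:**
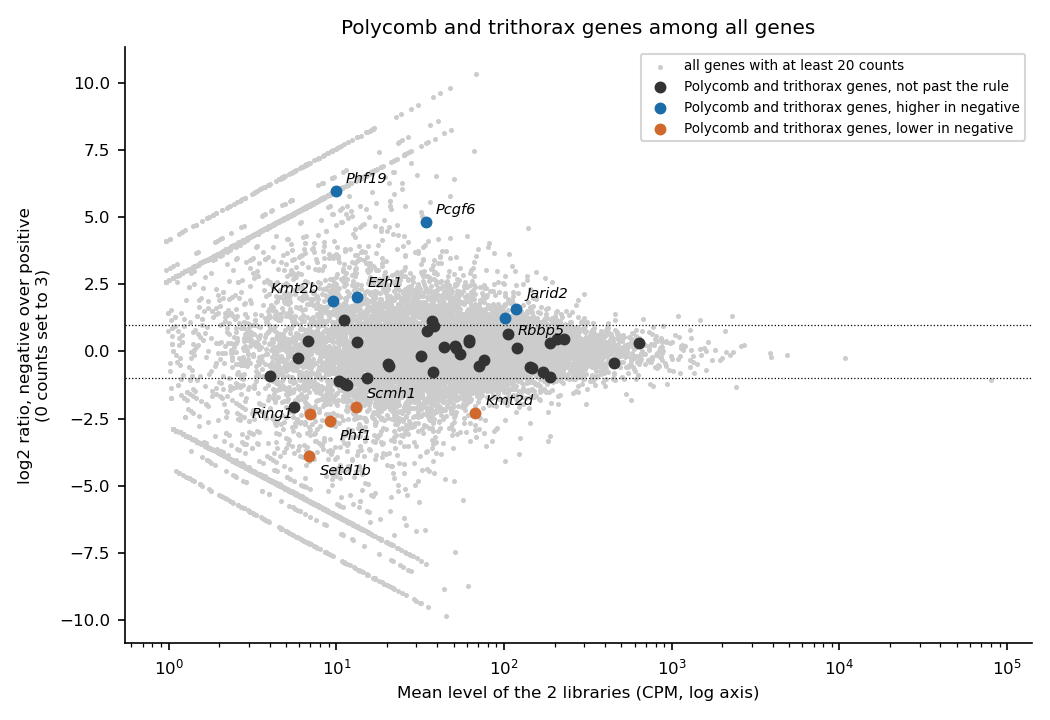
Log2 ratio of negative over positive library (vertical) against the mean CPM of the 2 libraries (horizontal, log axis) for every gene with at least 20 counts (grey) and the 47 Polycomb and trithorax genes (large points). Dotted lines mark 2-fold, a count of 0 was set to 3, and the streaks at the left are genes at or near 0 in 1 library. Phf19 and Pcgf6 stand highest and Setd1b lowest among the members, while the 4 members above 200 CPM lie close to 0.

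The share of genes past the rule depended on the level. Among members that reached the level filter, 5 of 5 with a mean under 10 CPM were past it, against a background of 83.3%. From 10 to 50 CPM 3 of 17 were past it (background 35.7%), from 50 to 200 CPM 3 of 17 (background 16.5%), and above 200 CPM 0 of 4 (background 5.37%). The 5 low members were Phf1, Phf19, Ring1, Kmt2b and Setd1b, the next 3 were Ezh1, Pcgf6 and Scmh1, and the last 3 were Jarid2, Kmt2d and Rbbp5. The first 8 of these reached 10 CPM in 1 library only, so they passed the filter through the library in which they were high. Nothing is read from the number of them past the rule, and their levels, shares and odds below describe these 2 libraries only. Jarid2, Kmt2d and Rbbp5 were above 10 CPM in both. With the interval required to lie outside 4-fold, Pcgf6 and Phf19 were higher (background 7.17%) and Kmt2d and Setd1b lower (background 7.23%). When a coefficient of variation of 0.4 between libraries was assumed and added to the counting error, Pcgf6 and Phf19 were past the rule on the higher side (background 6.17%) and Setd1b on the lower (background 6.58%). Under both stricter rules the shares of the 43 members were below the background, and of the genes named only Kmt2d was above 10 CPM in both libraries.

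The promoters of 4 members are shown because they stand for both directions in families of paralogues, Pcgf6 and Phf19 being higher and Kmt2d and Ring1 lower in Venus-negative cells. Setd1b had no entry. Sequences are RefSeq's (GRCm38.p6, the mm10 build), 5′ to 3′ on the gene's own strand, and end just before the annotated start. Capitals mark 4 motifs searched on both strands, the GC box GGGCGG, the E box CACGTG, the E2F-type motifs TTTCCCGC and TTTGGCGC, and the GATA motifs AGATAA and TGATAA. In these windows only the GC box and, in Phf19, an E2F-type motif were found.
Pcgf6, chr19:47050907-47051156, minus strand: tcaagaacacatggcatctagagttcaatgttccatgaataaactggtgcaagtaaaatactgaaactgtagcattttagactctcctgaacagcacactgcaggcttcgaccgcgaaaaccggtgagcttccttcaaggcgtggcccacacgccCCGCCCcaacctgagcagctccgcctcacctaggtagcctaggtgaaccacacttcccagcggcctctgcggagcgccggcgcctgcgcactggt
Phf19, chr2:34914027-34914226, minus strand: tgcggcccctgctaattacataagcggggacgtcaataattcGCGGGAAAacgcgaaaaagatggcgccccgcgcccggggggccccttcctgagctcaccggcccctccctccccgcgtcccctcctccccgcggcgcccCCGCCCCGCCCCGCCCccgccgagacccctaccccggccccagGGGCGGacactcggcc
Kmt2d, chr15:98871206-98871455, minus strand: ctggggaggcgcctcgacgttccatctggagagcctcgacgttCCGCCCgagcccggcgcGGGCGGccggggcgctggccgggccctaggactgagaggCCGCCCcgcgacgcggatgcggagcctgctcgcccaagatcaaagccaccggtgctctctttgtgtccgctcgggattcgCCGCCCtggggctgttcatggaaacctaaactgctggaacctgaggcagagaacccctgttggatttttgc
Ring1, chr17:34024681-34024930, minus strand: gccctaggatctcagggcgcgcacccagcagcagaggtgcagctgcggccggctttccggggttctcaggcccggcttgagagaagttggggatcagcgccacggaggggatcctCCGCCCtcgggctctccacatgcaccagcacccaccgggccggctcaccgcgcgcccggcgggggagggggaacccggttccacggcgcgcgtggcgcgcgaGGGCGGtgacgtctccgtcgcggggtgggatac
The Pcgf6 window held 1 GC box and 14 CG dinucleotides. Phf19 had 4 GC boxes, some of which overlap, with 25 CG dinucleotides in 200 bases, Kmt2d 4 and 26, and Ring1 2 and 30. Over the 250 bases before the start, 38 members had 53 windows in the table, with a median of 20 CG dinucleotides, against 6 over all 32851 windows. The GC box stood in 66.0% of member windows and 32.7% of all windows, the E box in 16.98% and 6.02%, an E2F-type motif in 3.77% and 1.30%, and a GATA motif in 5.66% and 16.6%. The GATA letters occurred in windows of Pcgf2, Pcgf5 and Scmh1. A match describes the letters of the window only, and these windows hold more CG than most.

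In the core of PRC2, 1 of 6 genes was past the rule (30.1% of all genes that reached its level), the catalytic subunit gene Ezh1. Ezh2, the main catalytic subunit in dividing cells, had 1326 counts in Venus-negative and 2045 in Venus-positive cells, or 127 CPM (interval 121 to 134) and 216 CPM (207 to 226). Ezh1 (chromosome 11, 101191115 to 101226463, mm10), the alternative catalytic subunit that prevails in resting and adult cells, had 222 and 50 counts, or 21.3 CPM (18.6 to 24.3) and 5.29 CPM (3.92 to 6.97). The 2 catalytic genes thus went in opposite directions, and only Ezh1 was past the rule. Ezh1 was 4.03-fold higher in Venus-negative cells, a log2 ratio of 2.01 (interval 1.56 to 2.48), and Ezh2 was 1.70-fold lower (log2 ratio −0.76, interval −0.86 to −0.66). Per kilobase of exon Ezh2 exceeded Ezh1 in both libraries. Ezh1 made up 7.16% of the CPM per kilobase of the pair in Venus-negative cells and 1.11% in Venus-positive cells.

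The obligate partner Eed, which binds the finished mark, was at 69.4 and 54.5 CPM, and Suz12, which holds the complex together, at 27.9 and 47.2 CPM. Suz12 had the same log2 ratio as Ezh2 (−0.76, interval −0.98 to −0.54), while Eed was at 0.35 (interval 0.19 to 0.52). The histone-binding proteins encoded by Rbbp4 and Rbbp7 also serve other chromatin complexes. Rbbp7, at 707 and 576 CPM, was the most abundant member per kilobase in both libraries (301 and 246 CPM per kilobase), and Rbbp4 was at 387 and 519 CPM. Neither was past the rule. Rbbp4 shares 32.7% of its 50-base transcript stretches with transcripts of other genes, so its count is uncertain. Among the 23 proliferation genes, 1 (4.35%) was higher in Venus-negative cells by the rule (Bub1, 2.65-fold) and 0 were lower. Their median levels were 290 and 241 CPM. Of all genes that reached the level of the rule, 30.1% were past it, but only 5.37% of those with a mean above 200 CPM. The count of calls is therefore no result about proliferation. The median log2 ratio of the 23 genes was 0.05.

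Among the accessory subunits that direct PRC2 to its sites, 3 of 5 genes were past the rule (30.1% of all genes that reached its level). Phf1 and Phf19 had means under 10 CPM, where 83.3% of all genes that reached the filter were past it. Jarid2 (chromosome 13, 44729474 to 44921643), a DNA-binding cofactor that recruits PRC2 and stimulates it, had 1833 counts in Venus-negative and 551 in Venus-positive cells, or 176 CPM (168 to 184) and 58.3 CPM (53.5 to 63.3). It was 3.02-fold higher in Venus-negative cells, a log2 ratio of 1.60 (interval 1.46 to 1.74). Its partner in the same form of the complex, Aebp2, went the other way, with 71 and 154 counts (log2 ratio −1.26, interval −1.68 to −0.84), and was not past the rule. Jarid2 was therefore 97.2% of the CPM per kilobase of that pair in Venus-negative and 82.6% in Venus-positive cells.

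Members of the Polycomb-like family, which bind CpG islands in the other form of PRC2, each had their own pattern. Mtf2, the most abundant of the 3 per kilobase in both libraries, had 1320 and 2339 counts, or 127 and 247 CPM (log2 ratio −0.96, interval −1.06 to −0.87). Phf1 (chromosome 17, 26933052 to 26937908) had 27 and 148 counts, or 2.59 CPM (1.71 to 3.77) and 15.6 CPM (13.2 to 18.4). It was 6.03-fold lower in Venus-negative cells, a log2 ratio of −2.59 (interval −3.24 to −1.99), and 16.5% of its 50-base stretches occur in other transcripts, mainly those of Cuta. Phf19 (chromosome 2, 34893757 to 34914026), whose promoter window is printed above, had 206 counts in Venus-negative cells (19.8 CPM, interval 17.2 to 22.7) and 0 in Venus-positive cells, where 3 counts would be 0.317 CPM. Against a floor of 3 counts in that library it was at least 62.4-fold higher in Venus-negative cells, while the exact interval of the ratio began lower, at 50.3-fold. Phf19 was the only member with at most 3 counts in 1 library and at least 100 in the other, a pattern shared by 6.32% of the 12544 genes. Phf19 made up 14.1% of the family's CPM per kilobase in Venus-negative cells, and Mtf2 83.3% there against 91.1% in Venus-positive cells.

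**Figure D2:**
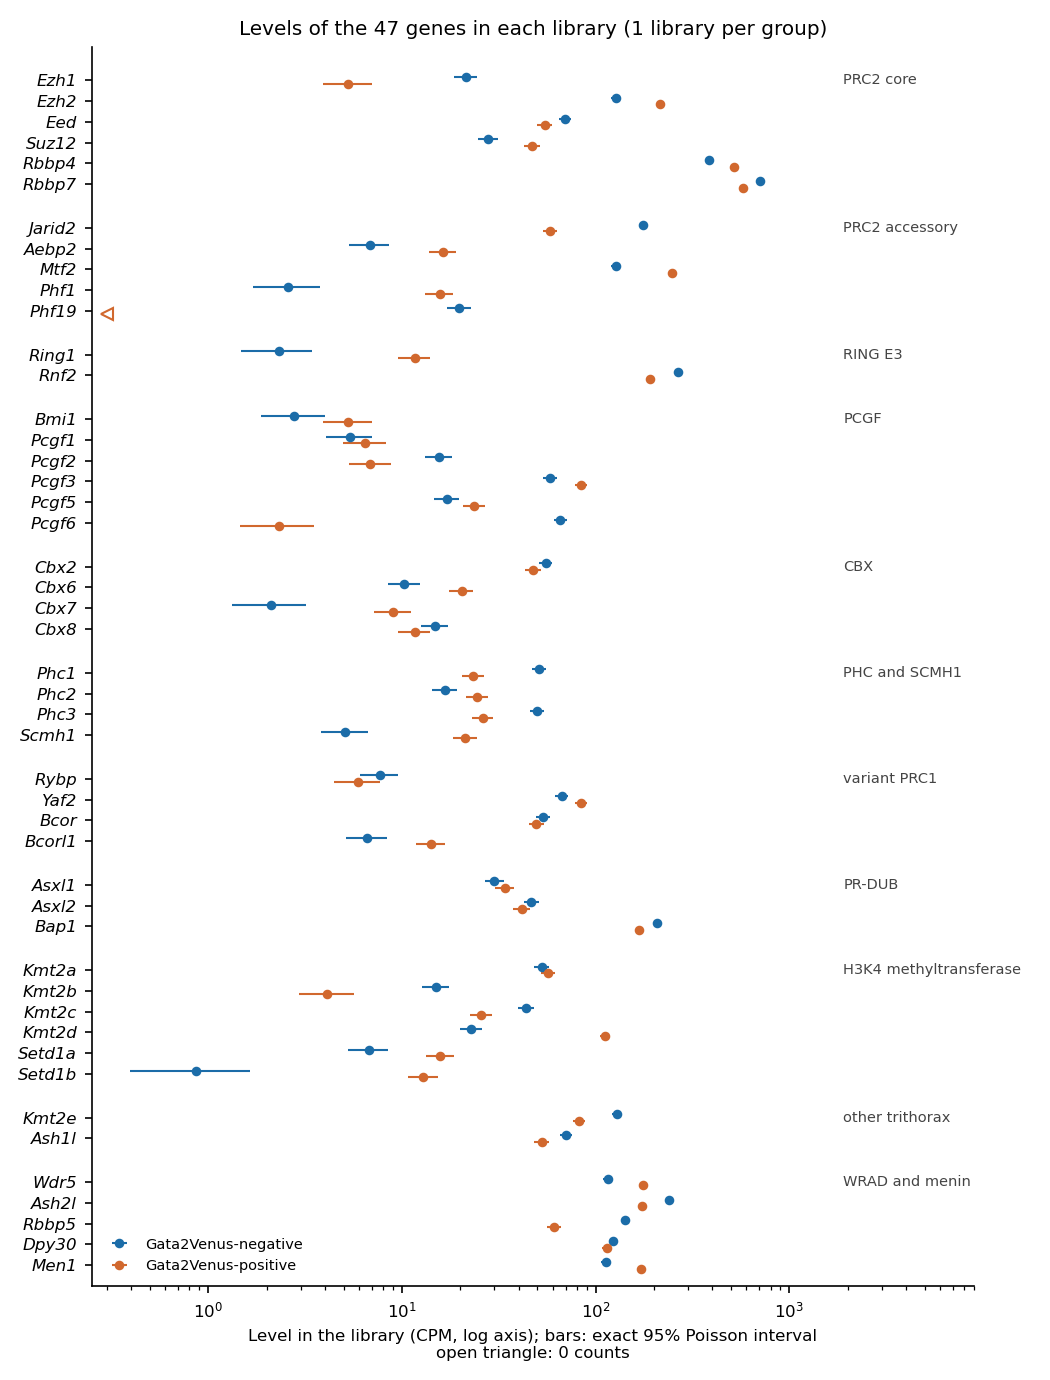
Level of each of the 47 genes in the negative (blue) and positive (orange) library in CPM on a log axis, grouped by complex, with exact 95% Poisson intervals as bars and an open triangle for a count of 0. Most pairs of points lie close together. Of the members past the rule, Ezh1, Jarid2, Phf19, Pcgf6, Kmt2b and Rbbp5 lie to the right in Venus-negative cells. Phf1, Ring1, Scmh1, Kmt2d and Setd1b lie to the left there, as does Cbx7, which did not reach the level of the rule.

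In PRC1, the catalytic pair was dominated by Rnf2 (RING1B) in both libraries. Rnf2 had 2765 counts in Venus-negative and 1806 in Venus-positive cells, or 266 CPM (256 to 276) and 191 CPM (182 to 200), a log2 ratio of 0.48 (interval 0.39 to 0.56). Ring1 (RING1A; chromosome 17, 34020792 to 34024680) had 24 and 110 counts, or 2.31 CPM (1.48 to 3.43) and 11.6 CPM (9.56 to 14.0). Ring1 was thus lower in Venus-negative cells and Rnf2 slightly higher, with Ring1 past the rule at 5.05-fold (log2 ratio −2.33, interval −3.04 to −1.69). The share of Ring1 in the pair's CPM per kilobase was 1.41% in Venus-negative and 9.10% in Venus-positive cells. Without regard to length it was 0.861% and 5.74%.

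The PCGF proteins define the kind of PRC1, and the leading gene of the family differed between the libraries, being Pcgf6 in one and Pcgf3 in the other. Pcgf6 (chromosome 19, 47033617 to 47050906) encodes the subunit of a variant PRC1 that works with the DNA-binding proteins MGA, MAX and E2F6 and keeps germ cell genes silent in embryonic stem cells. It had 684 counts in Venus-negative and 22 in Venus-positive cells, or 65.7 CPM (60.9 to 70.8) and 2.33 CPM (1.46 to 3.52). It reached 10 CPM in Venus-negative cells alone, so it passed the filter through the library in which it was high. Pcgf6 was 28.2-fold higher in Venus-negative cells, a log2 ratio of 4.82 (interval 4.21 to 5.50). It was 59.6% of the CPM per kilobase of the 6 PCGF genes in Venus-negative and 4.44% in Venus-positive cells, where Pcgf3 led with 38.4%.

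The other PCGF genes were not past the rule, against 30.1% of all genes that reached its level. Bmi1 and Pcgf1 did not reach that level, so they could not be past it. Pcgf3 and Pcgf5, whose proteins form the variant PRC1 that starts Polycomb recruitment on the inactive X chromosome, had 605 and 795 counts (58.1 and 84.1 CPM) and 178 and 223 counts (17.1 and 23.6 CPM). Pcgf1, of the KDM2B and BCOR form, had 56 and 61 counts (5.38 and 6.45 CPM), a log2 ratio of −0.26 whose interval includes equal levels (−0.81 to 0.29). In the canonical pair, Pcgf2 (MEL18) had 161 and 65 counts and Bmi1, a regulator of blood stem cell self-renewal, 29 and 50. Pcgf2 was at a log2 ratio of 1.17 (interval 0.75 to 1.61) and Bmi1 at −0.92 (interval −1.64 to −0.24). Bmi1 was the least abundant PCGF gene per kilobase in Venus-negative cells, at 0.753 CPM per kilobase against 1.43 in Venus-positive cells. Bmi1 and Pcgf1 share 16.9% and 19.7% of their 50-base stretches with other transcripts, mostly predicted genes.

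Genes of 3 partners of PCGF6 were chosen after their values were seen. Mga was at 45.8 and 138 CPM, 3.01-fold lower in Venus-negative cells by the rule (log2 ratio −1.59, interval −1.74 to −1.44). E2f6 was at 23.9 and 47.6 CPM (log2 ratio −0.99) and L3mbtl2 at 89.1 and 74.0 CPM (log2 ratio 0.27), and neither was past it. Among the epithelial and germ cell markers, 4 of 6 were higher in Venus-negative cells by the rule (15.2% of all genes that reached its level), as Pcgf6 was. Dppa3, a gene of primordial germ cells, had 983 counts and 1, Pou5f1, a pluripotency and germ cell factor, 870 and 59, and the epithelial adhesion gene Epcam 498 and 103. Cdh1, also of epithelial adhesion, had 322 and 105. The keratin genes were not past the rule, Krt8 with 1104 and 1199 counts (log2 ratio −0.26) and Krt18 with 2067 and 1111 (log2 ratio 0.76). The part of such cells in the level of Pcgf6 was not tested.

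Among the CBX genes, the readers of canonical PRC1, 0 of 4 were past the rule, against 30.1% of all genes that reached its level. Cbx7 did not reach that level. Cbx2, the leading CBX gene measured, was at 55.1 and 47.4 CPM (log2 ratio 0.22, interval 0.04 to 0.40), and Cbx8 at 14.8 and 11.6 CPM (0.35, interval −0.02 to 0.71). Cbx6 was at 10.3 and 20.3 CPM (log2 ratio −0.98). Cbx7, which favours self-renewal of blood stem cells, had 22 and 85 counts, or 2.11 and 8.99 CPM. Its log2 ratio of −2.09 (interval −2.84 to −1.40) lay outside 2-fold, but its level stayed under the 10 CPM of the rule. Cbx2 was 68.9% of the CPM per kilobase of the 4 genes in Venus-negative and 57.0% in Venus-positive cells, and Cbx7 2.96% and 12.1%.

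Among the polyhomeotic genes, whose proteins link PRC1 complexes into larger assemblies, Phc1 and Phc3 had higher values in Venus-negative cells and Phc2 a lower one. Phc1 was at 51.2 and 23.4 CPM (log2 ratio 1.13, interval 0.90 to 1.36), Phc3 at 49.9 and 26.1 CPM (0.94, interval 0.71 to 1.16) and Phc2 at 16.6 and 24.4 CPM (−0.56, interval −0.85 to −0.27). None of the 3 was past the rule, whereas Scmh1 was. Of all genes that reached its level, 30.1% were past it, and 35.7% of those with a mean of 10 to 50 CPM, as these genes had. Scmh1 (chromosome 4, 120405281 to 120530186), a further partner of canonical PRC1, had 53 and 201 counts, or 5.09 CPM (3.81 to 6.66) and 21.3 CPM (18.4 to 24.4). It was 4.17-fold lower in Venus-negative cells, a log2 ratio of −2.06 (interval −2.53 to −1.62).

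In variant PRC1 and in the deubiquitinase, 0 of 7 members were past the rule, against 30.1% of all genes that reached its level. Rybp did not reach that level. Yaf2 was at 66.8 and 84.3 CPM and its homologue Rybp at 7.68 and 5.92 CPM, so that Yaf2 was over 95% of the CPM per kilobase of the pair in both libraries (95.9% and 97.5%). Bcor, a corepressor in the PCGF1 form, was at 53.8 and 49.5 CPM, and Bcorl1 at 6.63 and 14.1 CPM (log2 ratio −1.09, interval −1.53 to −0.66). Bap1, the catalytic subunit of the deubiquitinase, was at 207 and 168 CPM. Its partners Asxl1, at 29.97 and 33.9 CPM, and Asxl2, at 46.5 and 41.7 CPM, had intervals that include equal levels. Altogether 8 members had such an interval, namely these, Pcgf1, Cbx8, Rybp, Bcor, Kmt2a and Dpy30, and the other 39 (83.0%) did not. Over the 12544 genes the interval left out equal levels for 85.3%.

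The histone H3 lysine 4 methyltransferases went both ways, with 1 of 6 higher and 2 of 6 lower in Venus-negative cells. Of all genes that reached the level of the rule, 15.2% were higher and 14.9% lower. Kmt2b and Setd1b had means under 10 CPM, where 83.3% of all genes that reached the filter were past the rule. Kmt2d (chromosome 15, 98831669 to 98871204), the main enhancer methyltransferase together with Kmt2c, had 236 counts in Venus-negative and 1055 in Venus-positive cells, or 22.7 CPM (19.9 to 25.8) and 112 CPM (105 to 118). Kmt2c had 455 and 243 counts, or 43.7 and 25.7 CPM. The order of the pair thus differed, Kmt2c being above Kmt2d in Venus-negative and below it in Venus-positive cells, also per kilobase (2.92 and 1.14 against 1.72 and 5.63 CPM per kilobase). Kmt2d was 4.92-fold lower in Venus-negative cells, a log2 ratio of −2.30 (interval −2.51 to −2.09), whereas Kmt2c was at 0.77 (interval 0.54 to 1.00) and not past the rule.

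Kmt2a (MLL1), which sustains Hox expression and blood stem cells, was at 52.6 and 56.9 CPM (log2 ratio −0.11, interval −0.29 to 0.06). Its nearest homologue Kmt2b (chromosome 7, 30568858 to 30588726) had 156 and 39 counts, or 15.0 CPM (12.7 to 17.5) and 4.12 CPM (2.93 to 5.64). Kmt2b was 3.63-fold higher in Venus-negative cells, a log2 ratio of 1.86 (interval 1.35 to 2.41), with Kmt2a nearly equal. The SET1 enzymes deposit most of the trimethyl mark at promoters. Setd1b (chromosome 5, 123142193 to 123168629) had 9 and 122 counts, or 0.864 CPM (0.395 to 1.64) and 12.9 CPM (10.7 to 15.4), and was 14.9-fold lower in Venus-negative cells, a log2 ratio of −3.90 (interval −5.06 to −2.93). Setd1a was at 6.72 and 15.8 CPM (log2 ratio −1.23, interval −1.66 to −0.81), not past the rule. It shares 51.9% of its 50-base stretches with an overlapping predicted gene, which makes its count uncertain. Of the CPM per kilobase of the 6 enzymes, Kmt2d was 11.3% in Venus-negative and 37.2% in Venus-positive cells and Kmt2b 17.4% and 3.22%.

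**Figure D3:**
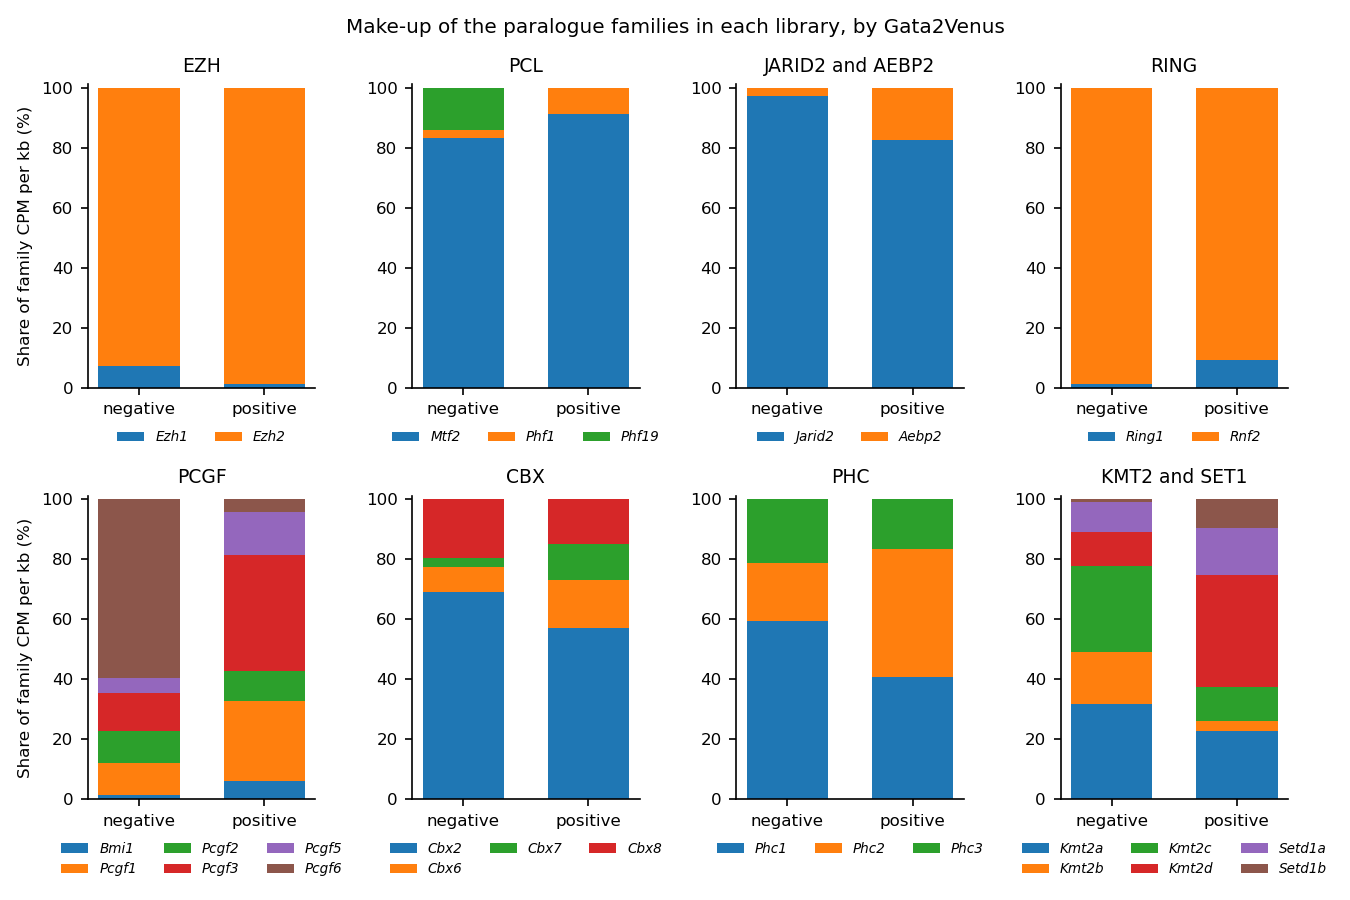
Share of each gene in the summed CPM per kilobase of exon of its set (vertical, percent) in Venus-negative and Venus-positive cells, for 8 sets. The sets are families of paralogues, except that Jarid2 and Aebp2 are partners in the same form of PRC2. Pcgf6 fills 59.6% of the PCGF bar in Venus-negative and 4.44% in Venus-positive cells, Kmt2d fills 11.3% and 37.2% of the KMT2 and SET1 bar, and Ezh2 and Rnf2 fill over 90% of theirs in both.

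Of the shared platform of these enzymes, 1 of 4 genes was past the rule, against 30.1% of all genes that reached its level. Wdr5 was at 115 and 176 CPM, Ash2l at 240 and 173 CPM, and Dpy30 at 124 and 115 CPM, none past the rule. Rbbp5 (chromosome 1, 132477365 to 132505659), which bridges the enzyme and the nucleosome, had 1480 and 575 counts, or 142 CPM (135 to 149.6) and 60.8 CPM (55.9 to 66.0). Rbbp5 was 2.34-fold higher in Venus-negative cells, a log2 ratio of 1.23 (interval 1.09 to 1.37), so that the 4 platform genes did not share a direction. Men1, whose product menin tethers KMT2A and KMT2B to chromatin, was at 113 and 171 CPM (log2 ratio −0.60, interval −0.71 to −0.49). Kmt2e and Ash1l, of which ASH1L methylates histone H3 at lysine 36, were at 129 and 82.5 CPM and at 70.5 and 52.7 CPM, with log2 ratios of 0.64 and 0.42.

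**Figure D4:**
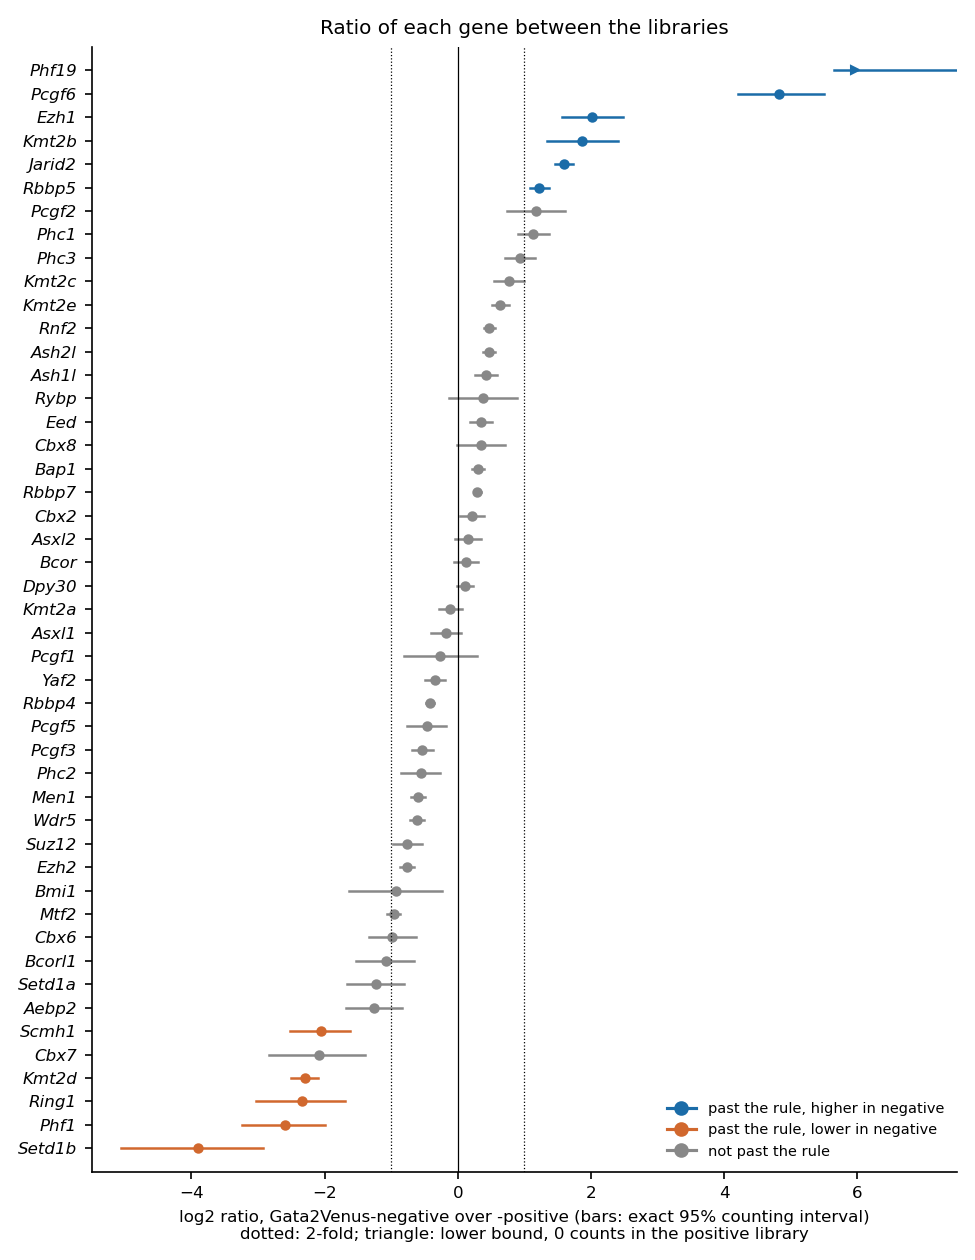
Log2 ratio of negative over positive library for the 47 genes, ordered by ratio, with exact 95% counting intervals and dotted lines at 2-fold. The 6 genes in blue are higher and the 5 in orange lower by the rule of size, and Cbx7 lies outside 2-fold without reaching 10 CPM.

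Because scaling between libraries cancels in the ratio of 2 genes of the same library, the split between close homologues or partners was also compared directly, for 10 pairs chosen after the values were known. The odds of Kmt2d against Kmt2c were 8.36-fold higher in Venus-positive cells (exact conditional interval 6.75 to 10.4), and those of Ring1 against Rnf2 7.01-fold (4.46 to 11.5). Setd1b against Setd1a was 6.34-fold higher there (2.996 to 15.0). That value rests on 9 counts of Setd1b in Venus-negative cells and on the count of Setd1a, which is uncertain because of shared sequence (51.9%). In the other direction, Jarid2 against Aebp2 was 7.21-fold higher in Venus-negative cells (5.32 to 9.85), Ezh1 against Ezh2 6.84-fold (4.97 to 9.57) and Kmt2b against Kmt2a 3.92-fold (2.69 to 5.84). The splits of Bcor and Bcorl1 (2.30-fold), Rbbp4 and Rbbp7 (1.65-fold), Rybp and Yaf2 (1.64-fold) and Asxl1 and Asxl2 (1.26-fold) differed less. The count of Rbbp4 is likewise uncertain because of shared sequence (32.7%). The intervals of these odds hold counting error alone, by which 85.3% of single genes already lay away from equal levels.

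Genes that work with these complexes, outside the members, were also counted. Of 26 genes associated with Polycomb complexes 24 reached the level of the rule, and 2 were higher and 7 lower in Venus-negative cells, with a median log2 ratio of −0.16. These are 37.5% of the 24, against 30.1% of all genes at that level. Sfmbt1, of the Pho-repressive type of complex, had 111 and 2 counts, and Ogt, which adds O-GlcNAc to proteins, was 2.37-fold higher in Venus-negative cells. The lower genes furthest from equal levels were Mbd5 (3 and 106 counts), Epop (listed as E130012A19Rik, 4 and 97 counts), Mbd6 (21 and 185 counts) and Yy1 (57 and 298 counts). Of 14 genes associated with trithorax complexes or with histone demethylation, all reached the level. Past the rule were 0 of them (30.1% of all genes at that level), with a median of 0.01. Their median was 96.2 CPM against 24.5 CPM for the Polycomb-associated genes in Venus-negative cells, and calls are rarer among genes with more counts. The 3 heterochromatin chromobox genes Cbx1, Cbx3 and Cbx5, which are no Polycomb genes, were not past it either, with log2 ratios of 0.13, −0.41 and −0.38.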

How the data were processed

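RNA of 2 libraries, Gata2Venus-negative and Gata2Venus-positive, was analysed. Per the labels' protocols, RNA was prepared by Ambion's mirVana kit and SMARTER, followed by ordinary Illumina library construction. Per the submitters' processing notes TopHat, Cufflinks and HTSeq were used on build mm10. Versions, annotation and strand use were not given in the sources used here. Overlapping genes on either strand cannot be told apart. The values deposited by the authors are raw counts per gene symbol for 24062 genes. The 5 further rows for unassigned reads, 51.9% and 56.6% of all counts, were left out, most of them alignments that were not unique.

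Counts were divided by the TMM-scaled totals (edgeR 4.0.16, R 4.3.3; factors 1.03 and 0.974). Ratios have Clopper-Pearson intervals given the gene's total, levels have Poisson intervals, and a count of 0 was set to 3 for a lower bound. No test was possible with 1 library per group. The rule of size needs 10 CPM and 50 counts in the higher library and an interval beyond 2-fold. Exon lengths, coordinates and overlaps come from GENCODE vM21 (mm10), with all 47 members matched. Sequence shared with other genes was searched in its transcripts as 50-base stretches on both strands. The members, gene lists and alternatives were chosen with earlier results of these data known. Every member is reported, and of each other list up to 4 genes a direction, those past the rule with intervals most distant from equal levels, unless said otherwise. Alternatives were other scalings (total counts, DESeq2 1.42.0 size factors, TMM without the 100 most abundant genes), other filters, a 4-fold limit, no interval, a coefficient of variation of 0.4, only genes over 3 counts in both libraries, and 0.5 counts added. The steps were tested on simulated data that held counting error only. Spread between libraries and from amplification was not part of that check.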

Additional observations from a re-analysis of the deposited data

How the results depend on the processing

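No paired analysis was possible because each group has 1 library, and no library could be left out. The 11 members past the rule kept direction and stayed within their counting interval under each of the 3 other scalings and with 0.5 counts added (44 of 44 values). The counts of 6 higher and 5 lower members became 3 and 1 with a filter of 50 CPM, 2 and 2 with an interval beyond 4-fold, 2 and 1 with a coefficient of variation of 0.4, and 8 and 8 for a 2-fold ratio without the interval. They were 6 and 6, with Cbx7 added, under TMM without the 100 most abundant genes, with a filter of 1 CPM and 10 counts and with none, and 5 and 5 where both libraries had to exceed 3 counts. The median log2 ratio of the members lay between −0.15 and −0.002 under all alternatives run. Total-count scaling moved the median of all genes by 0.08. Without regard to length the share of Pcgf6 in its family was 39.9% and 1.81%, that of Ezh1 14.3% and 2.39%, that of Kmt2d 16.01% and 49.2%, and that of Kmt2b 10.6% and 1.82%, in Venus-negative and Venus-positive cells. Members under 10 CPM rest on few counts, and spread between libraries was not measured.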

Other observations

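Of 27 developmental regulator genes known to be bound by Polycomb complexes in embryonic stem cells, 15 had under 20 counts over both libraries. Of all 24062 genes, 11518 did. Of the 27, 17 had 0 counts in Venus-negative and 13 in Venus-positive cells, against 11670 and 11353 of all 24062 genes. Among those at 0 in both were Cdkn2a and Cdkn2b, cell cycle inhibitor genes that PRC1 represses. Of the 10 that reached the level of the rule, 3 were higher and 4 lower in Venus-negative cells. The lower genes were Tbx3, a T-box factor (41 and 559 counts, 15.0-fold), Cdkn1a, a cell cycle inhibitor (74 and 468 counts, 6.96-fold), Gata6 (2.65-fold) and Sox17, an endothelial factor (410 and 984 counts, 2.64-fold). The higher genes were Gata4 (318 counts and 1), Sox9 (303 and 108 counts, 2.55-fold) and Msx1 (147 and 47 counts, 2.84-fold). Of 39 Hox genes 22 reached that level, and 6 were higher and 3 lower. For comparison, 15.2% and 14.9% of all genes at that level were higher and lower. No link between them and the levels of the complex members was tested.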
